A study of Rattus norvegicus with 19 samples.

Results

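The wild-type baseline of the series consisted of the 6 libraries whose description names them wt1 to wt6, of 19 libraries in all; the carrier libraries (Del/+, Dup/+ and Del/Dup) were not used. Each wild-type (wt) library held hippocampal RNA of 1 male Sprague Dawley rat, an outbred stock, bred from parents carrying the deletion or the duplication of the conserved 16p11.2 interval, with neither rearrangement in the wt animals themselves. The age of the animals used for RNA and the hour and circumstances of sacrifice were not given in the labels. For wt5 the description gave wt while the genotype field gave Dup/+. The description was followed, because it carries the replicate numbers of the group, and the main counts, and the range of most genes highest in wt5, are also given without it.

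The hippocampus is a folded sheet of excitatory neurons, with dentate granule cells feeding CA3 pyramidal cells and these feeding CA1, held together by interneurons, astrocytes, oligodendrocytes, microglia and vessels. Its fluid-facing surface is lined by ependymal cells with motile cilia and lies against the choroid plexus, which makes cerebrospinal fluid. A bulk library averages all of these. Fewer cells of a type and less RNA per cell therefore cannot be told apart, and neither can tissue taken along at dissection. Some transcripts are known to follow the state of the animal rather than its cell makeup. Immediate early genes are switched on within minutes of neuronal firing, clock genes follow the hour of the day, and chaperones follow protein folding stress.

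The libraries held between 25642772 and 38760645 reads assigned to genes, so that a level of 1 CPM, the unit used here, in which reads are scaled to the library total, stood for 25.6 to 38.8 reads. Alignments to more than 1 place, which the gene counts left out, made up 40.1% to 47.6% of all counts, genes and summary lines together. Reads outside genes made up 13.5% to 15.7% of the same total, with wt5 the highest. No pair of libraries was a copy of another: over genes, the chi-square of the counts divided by its degrees of freedom lay between 3.53 and 19.3, where counting error alone gives about 1.

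The labels were first compared with the levels. Kdm5d and Eif2s3y, genes of the Y chromosome, stood at 51.2 to 57.1 CPM and 43.8 to 53.7 CPM, respectively, and all 6 animals were labelled male. The 22 genes of the 16p11.2 interval with a mean of at least 2 CPM had in wt5 a median level 0.04 below the mean of the other 5 libraries on the log2 scale. In the other libraries that median lay between -0.05 and 0.03, so that wt5 did not stand apart in the interval. None of the 22 ranged 2-fold between the highest and lowest wt library, as 2.65% of the 12558 genes at this level or above did. These 12558 genes are called tested below. The hippocampal cell types were all found. Prox1, the transcription factor of dentate granule cells, was at 159 ± 20.7 CPM, and Wfs1, a marker of CA1, at 343 ± 98.2 CPM (mean ± SD, n = 6 libraries for every such value below). Some usual markers had no or few reads. Fibcd1 of CA1, Npy of interneurons and the housekeeping gene Hprt1 were listed at 0 reads in all 6 libraries, and Spink8, Lct and Tdo2 had means under 0.12 CPM. Since every cell uses Hprt1, a row at 0 reads is not read as absence of the transcript. Peptide genes of the hypothalamus were low: 1 of 15 in the files, Cartpt, reached a mean of 2 CPM.

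Of 32623 genes in the files, 22607 had a read in at least 1 wt library and 17053 had a read in every one. A mean of at least 1 CPM was reached by 13551 genes, of at least 10 CPM by 9230, of at least 100 CPM by 2066 and of at least 1000 CPM by 92. The reads were concentrated: between 642 and 721 genes together held 50% of a library's gene reads. The 100 leading genes held 24.6% to 26.3%, and the 20 leading genes 14.4% ± 0.673. These are shares of reads, not of molecules, since a long transcript gives more fragments, and no transcript length was at hand for the gene models used.

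Mitochondrial transcripts led the list. The rows of the mitochondrial genome held 10.9% ± 0.680 of the gene reads, from 9.95% in wt2 to 11.8% in wt6. A row named AY172581.24, after the mitochondrial sequence and without a gene name in the files, alone held 5.84% ± 0.466. Its share was 6.15%, 5.34%, 6.17%, 5.44%, 5.52% and 6.44% in wt1 to wt6. AY172581.9 held 1.89% ± 0.117 and Mt-co1, the catalytic subunit of cytochrome c oxidase, 1.54% ± 0.0791. Mt-co2 and Mt-atp6, subunits of the oxidase and of ATP synthase, held 0.432% ± 0.0369 and 0.374% ± 0.0290. Within the mitochondrial list the 13 tested members did not keep the same proportions. Mt-co1 had a biological coefficient of variation (with the counting variance subtracted) of 6.51%, whereas Mt-atp8, another subunit of ATP synthase, had 20.7% with 196 CPM in wt2 and 339 CPM in wt5.

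Among the nuclear genes of the 20, Map1b, Map2 and Map1a, which bind microtubules in axons and dendrites, held 0.447% ± 0.0313, 0.351% ± 0.0103 and 0.246% ± 0.0234. The spectrin Sptan1, which lines the neuronal membrane, held 0.262% ± 0.0115. Actb, cytoplasmic actin, closed the list of 20 at 0.218% ± 0.0134. Zwint, a kinetochore protein by name, was at 0.224% ± 0.00804. Ncdn, the neuronal protein neurochondrin, was at 0.301% ± 0.0225. The glia were represented by Apoe, the lipid carrier of astrocytes, at 0.262% ± 0.0149 and by Sparcl1, a secreted astrocyte protein, at 0.252% ± 0.0243. The myelin gene Mbp stood at 0.249% ± 0.0244. Scd2, a desaturase that makes oleic acid for membrane lipids, held 0.396% ± 0.0140. Lastly, 2 of the 20 were RNAs without a polyA tail. A 7SK row (RF00100), the RNA that holds back transcription elongation, had 0.332% ± 0.0327, and Rpph1, the RNA of ribonuclease P, had 0.294% ± 0.0643.

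**Figure D1:**
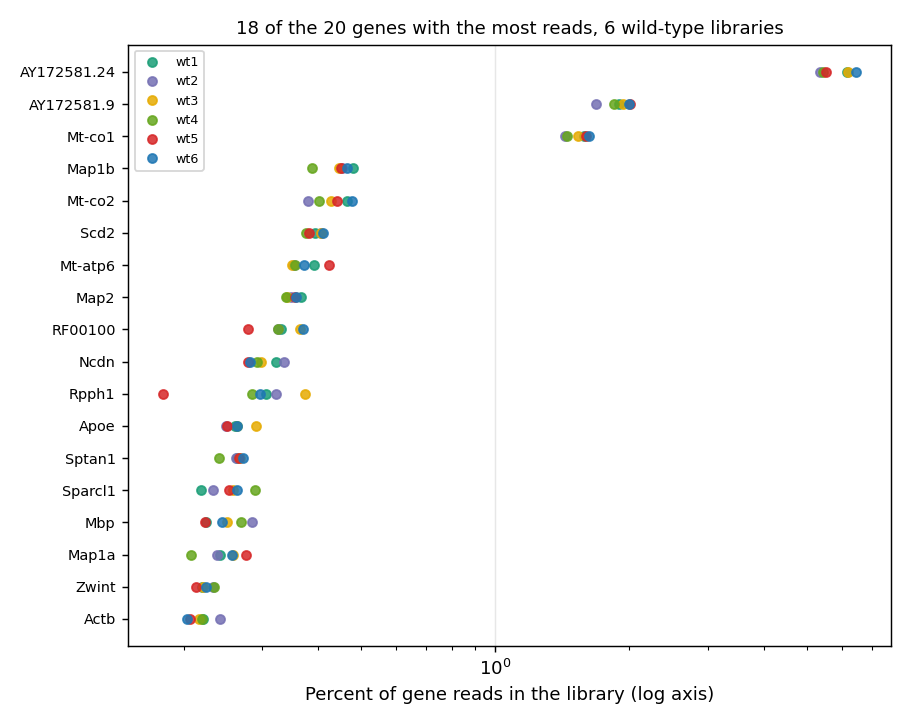
Share of gene reads (percent, log axis) of 18 of the 20 genes with the most reads; each point is 1 of the 6 wild-type libraries. The first row holds about 5.84% of the reads on average, and the points of a gene lie close together except for Rpph1, whose share was 0.180% in wt5 and 0.375% in wt3.

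Synaptic genes were also abundant. All 35 listed genes of synaptic transmission were tested and none ranged 2-fold, where 0.339% of all genes above 100 CPM did. Their median biological coefficient of variation was 6.18%, against 5.79% over all tested genes and 4.95% over all genes above 100 CPM. Slc17a7, the glutamate transporter of synaptic vesicles, had 2099 ± 109 CPM and Syt1, the calcium sensor of release, 1902 ± 84.8 CPM. The most variable of them were the scaffold genes Shank1, with 447 CPM in wt4 and 716 CPM in wt5, and Bsn, with 1083 CPM in wt4 and 1736 CPM in wt5. Markers of microglia (16 tested), astrocytes (18), interneurons (18), oligodendrocyte precursors (8), endothelium (11) and mural cells (11) included no gene ranging 2-fold either, and counts of 0 in lists of this size are near the 2.65% of all tested genes. Smaller differences were shared, however. The lowest library was wt4 for 9 mural, 8 endothelial and 11 astrocyte genes, against 19.8% of all tested genes. It was wt4 for 7 interneuron, 4 precursor and 3 microglial genes. Relative to each gene's mean, the mural median was -0.22 in wt4 on the log2 scale. Csf1r, the growth factor receptor of microglia, stood at 103 ± 5.16 CPM, and the summed level of the microglial list differed by a factor of 1.05 between the highest and lowest library. For the 25 genes of cholesterol synthesis that sum differed by a factor of 1.11.

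Variation between libraries was then measured on TMM-scaled CPM over the 12558 genes with a mean of at least 2 CPM. The biological coefficient of variation (bCV) used here is the coefficient of variation after subtraction of the counting variance. Its median was 5.79%, with quartiles at 3.43% and 9.20%. With 1 library per animal, it holds both the animal and the preparation of its library, which cannot be told apart. A chi-square test of the counts against counting error alone, with Benjamini-Hochberg adjustment over all tested genes, called 8478 genes (67.5%) at an adjusted p under 0.05. Most of these differences were small, the median gene differing by a factor of 1.21 between its highest and lowest library. A range of 2-fold or more was reached by 333 genes (2.65%), of 4-fold or more by 69 and of 10-fold or more by 24. That share depended on the level: it was 11.7% at 2 to 5 CPM, 2.47% at 5 to 20 CPM, 0.643% at 20 to 100 CPM and 0.339% above. The count rests on single libraries for most genes, since the second highest library exceeded the second lowest 2-fold in 83 genes. Without wt5 it was 241 of 12519 genes (1.93%).

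**Figure D2:**
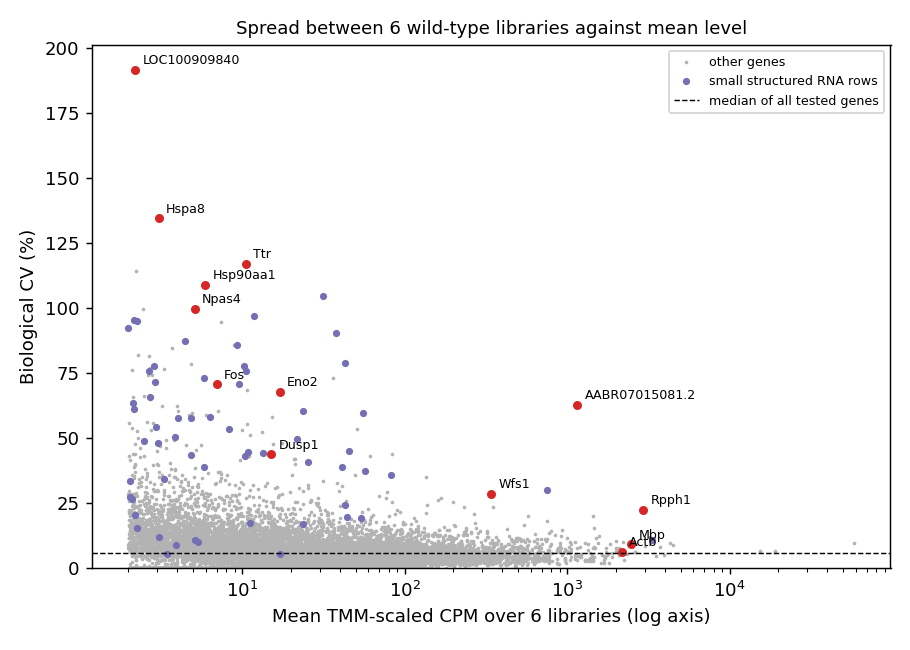
Biological coefficient of variation (percent) of each tested gene against its mean TMM-scaled CPM over 6 libraries (log axis). Most genes lie near the dashed median of 5.79%, the small structured RNA rows (median 46.5%) lie above it, and named genes are marked in red.

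The genes that varied were not drawn evenly from all kinds of gene. Small structured RNAs had 47 of 60 tested rows ranging 2-fold, against 219 of 11502 named genes (1.90%), 61 of 912 loci without a name (6.69%) and 5 of 66 ribosomal protein rows (2 of 65 without wt3). Among the 30 rows with the highest bCV, 13 were small structured RNAs, 10 were named genes, 6 were unnamed loci and 1 was a ribosomal protein gene. Without the small RNAs 286 genes ranged 2-fold. Of these, wt5 was the highest library for 84, wt4 for 65, wt6 for 47, wt2 and wt3 for 33 each and wt1 for 24. Over all tested genes regardless of range, wt5 was the highest library for 19.8% and the lowest for 21.05%, and wt4 for 17.7% and 19.8%.

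Immediate early genes formed the list with the most members ranging 2-fold, apart from the small RNAs. They encode transcription factors (Fos, Fosb, Junb, Egr2, Egr4, Npas4), signalling brakes (Dusp1) and growth arrest proteins (Btg2, Gadd45g) that are transcribed in neurons shortly after activity. Of 34 listed genes 31 were tested, 10 ranged 2-fold (32.3%, against 2.65% of all genes) and 29 differed beyond counting error (against 67.5%). All 10 were highest in wt5. The list was chosen with earlier results of these data known, so the share of 32.3% describes these libraries and is no test. Of the 27 members with a mean of at least 5 CPM, 8 ranged 2-fold, against 1.23% of all genes at that level.

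Npas4, a factor specific to neuronal activity, had 3.03, 1.82, 4.48, 1.63, 15.3 and 4.55 CPM in wt1 to wt6. The wt5 library thus stood far above the other 5, with a bCV of 99.7% and a range of 9.40-fold, which was 2.78-fold without wt5. Fos had 5.12, 2.75, 6.42, 4.41, 16.7 and 6.45 CPM, again with wt5 apart from the other 5, a bCV of 70.8% and a range of 6.09-fold, or 2.35-fold without wt5. Dusp1, a phosphatase that switches off MAP kinases, had 11.9, 10.2, 15.5, 12.2, 28.3 and 12.8 CPM. Egr2 was low, with 1.69, 2.16, 1.32, 1.09, 3.54 and 2.41 CPM. For Junb the values were 31.04, 30.4, 39.5, 39.4, 62.2 and 34.4 CPM. In each of these 3 genes wt5 was above all other libraries, and without it they ranged 1.51-, 2.22- and 1.30-fold. The other 5 genes ranged 2.05-fold (Btg2), 2.06-fold (Ier2), 2.19-fold (Fosb), 2.24-fold (Egr4) and 2.36-fold (Gadd45g). In the same order they ranged 1.30-, 1.46-, 1.45-, 1.91- and 1.43-fold without wt5.

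Other members were highest in wt5 with a smaller range. The effector gene Arc, whose product acts at synapses, had 112, 125, 107, 89.1, 152 and 101 CPM, a range of 1.71-fold. Egr1 had 57.3, 82.2, 57.4, 58.2, 104 and 59.7 CPM, with wt2 the next highest after wt5. Not all of the list followed wt5. The growth factor Bdnf had 60.0, 61.05, 46.7, 42.7, 50.5 and 48.6 CPM, and here wt1 and wt2 were the higher ones. Gadd45b, at 7.67 to 8.84 CPM, did not differ beyond counting error. Over the 31 tested genes wt5 was the highest library for 18 and wt4 the lowest for 10, where each of these held for 19.8% of all tested genes. The median difference from a gene's mean was 0.16 in wt5 and -0.16 in wt4 on the log2 scale, and between -0.064 and -0.0026 in the other libraries. Without wt5, 2 of 30 tested members (Npas4 and Fos) ranged 2-fold, against 1.93% of all genes, and Egr2 was no longer tested, with a mean of 1.73 CPM. The share of reads outside genes was also highest in wt5, and the share of small structured RNA lowest (0.571%); their part in the result was not tested.

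**Figure D3:**
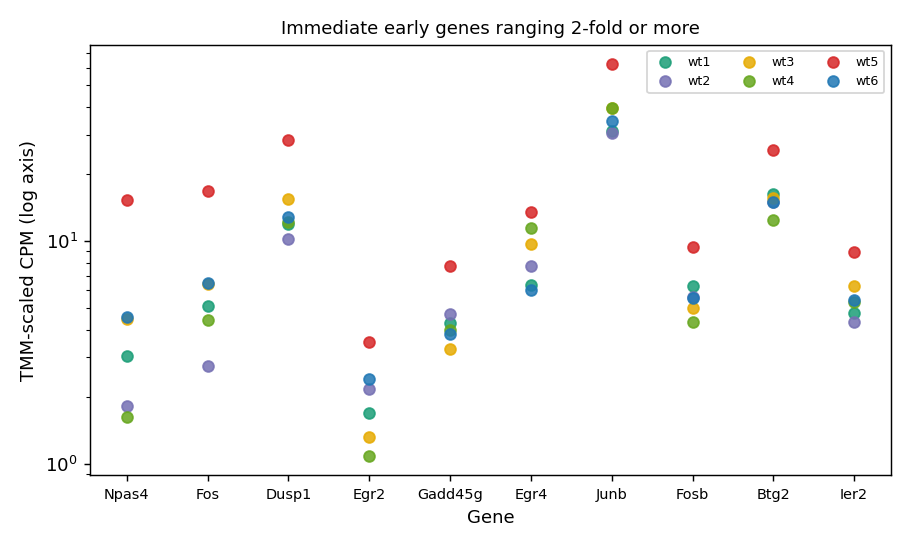
TMM-scaled CPM (log axis) of the 10 immediate early genes ranging 2-fold or more, with 1 point for each wild-type library. The red point, wt5, is the highest in all 10 genes, at 15.3 CPM for Npas4 against 1.63 to 4.55 CPM in the others.

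The promoters of the tested immediate early genes were searched for the cAMP response element, the palindrome TGACGTCA. It is bound by CREB, which is known to drive activity-dependent transcription. The search covered the 250 bases before each start in the RefSeq promoter table of assembly GRCr8, on either strand. Of the 10 genes ranging 2-fold 9 had an entry, Fos being the one without, and 3 held the element. Of the 21 tested members that did not range 2-fold 15 had an entry and 0 held it. Among all 33469 promoters in that set, 1.59% held it. The stretch around the element is shown for these 3 genes, read on the strand of the gene and with the element in capitals, to show the bases around it; no stretch reaches the start. In Ier2 (chr19:40399267-40399354, plus strand) the element began 66 bases before the start, in Dusp1 (chr10:17184689-17184776, plus strand) 124 bases and in Btg2 (chr13:48087844-48087931, minus strand) 201 bases.
Ier2: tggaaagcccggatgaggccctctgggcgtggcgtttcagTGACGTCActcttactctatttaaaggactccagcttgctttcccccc
Dusp1: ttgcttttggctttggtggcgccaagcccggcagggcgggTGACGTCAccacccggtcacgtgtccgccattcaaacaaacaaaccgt
Btg2: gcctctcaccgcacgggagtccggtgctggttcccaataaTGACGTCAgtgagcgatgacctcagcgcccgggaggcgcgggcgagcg
A match is only a run of letters, and Npas4, the most variable gene of the list, held none in its window. The division of the list at 2-fold rested mostly on wt5, without which 2 of 30 tested members ranged 2-fold. A part of CREB was not tested.

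Other genes whose pattern over the 6 libraries was most like that of Npas4, among the genes ranging 2-fold, were Fos, Dusp1, the unnamed locus AABR07070246.1, Btg2 and Ier2, with Pearson correlations of log2 CPM of 0.96, 0.93, 0.93, 0.92 and 0.90. The 6 points are few, they share their libraries, and without wt5 the values were 0.84, 0.71, 0.70, 0.65 and 0.61. Nearest to Fos were Dusp1 (0.96), Npas4 (0.96), Ier2 (0.95), the potassium channel gene Kcnk9 (0.94) and the heat shock factor gene Hsf4 (0.91), and without wt5 these were 0.85, 0.84, 0.82, 0.93 and 0.79. Kcnk9 and Hsf4 ranged 2.13- and 2.17-fold, and 1.65- and 1.58-fold without wt5.

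Markers of CA1 pyramidal cells differed between libraries. Of the 5 tested CA1 markers, 2 ranged 2-fold and all 5 differed beyond counting error, against 2.65% and 67.5% of all tested genes, with a median bCV of 17.9%. Wfs1, an endoplasmic reticulum protein, had 358, 527, 274, 289, 345 and 263 CPM, wt2 being far above the rest. Ccn3, Man1a1 and Pou3f1 ranged 1.44-, 1.48- and 1.58-fold. On the median of the 5 genes, wt2 (0.29) and wt5 (0.20) were above and wt3 (-0.28) and wt6 (-0.31) below the mean of the libraries, on the log2 scale. The summed level of the list was 925 CPM in wt2 and 541 CPM in wt6. Without wt2, wt5 or wt6 the count of CA1 markers ranging 2-fold was 1.

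The 7 tested dentate markers had a median bCV of 13.8% and the 7 of CA3 13.7%, the 6 of CA2 7.04%, and 0 of the 20 ranged 2-fold, near the 2.65% of all tested genes. Prox1 had 194, 171, 148, 135, 150 and 156 CPM, and was highest in wt1, while Wfs1 was highest in wt2. Bok of CA3, a member of the Bcl2 family, was lowest in wt5 with 41.3 CPM and highest in wt1 with 70.1 CPM. The CA3 markers did not move together in wt5, which was the lowest library for 3 of the 7 and the highest for 3. Median CA3 levels were lowest in wt5 (-0.19) and median dentate levels highest in wt5 (0.19) and wt1 (0.17). Markers of neighbouring regions were compared to see whether they moved in the same libraries. Of 12 striatal markers tested, 5 of them under 5 CPM, 2 ranged 2-fold, against 2.65% of all tested genes and 11.7% of those under 5 CPM. Without wt4 or wt5 the count was 1. Pdyn, the dynorphin precursor that granule cells also make, had 62.5, 67.1, 84.4, 118, 53.0 and 82.4 CPM, with wt4 the highest library. Ppp1r1b, the striatal phosphoprotein, ranged 1.12-fold. Of 11 neocortical markers 1, Ccn2, ranged 2-fold, against 2.65% of all tested genes, with 8.18 CPM in wt1 and 16.8 CPM in wt3; without wt3 it was 0. Cux2 and Tbr1 were highest in wt5, at 43.0 CPM and 27.4 CPM. Of 11 thalamic and habenular markers 0 ranged 2-fold, near the 2.65% of all tested genes. Slc17a6, the vesicular glutamate transporter of the thalamus, reached 1.85-fold and was higher in wt2 (22.8 CPM) and wt4 (22.6 CPM) than in the others (12.4 to 17.9 CPM). The list as a whole did not follow it in wt4. Summed over the list, wt2 was highest with 186 CPM and wt4 lowest with 155 CPM. The part of dissection in the CA1 values was not tested.

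**Figure D4:**
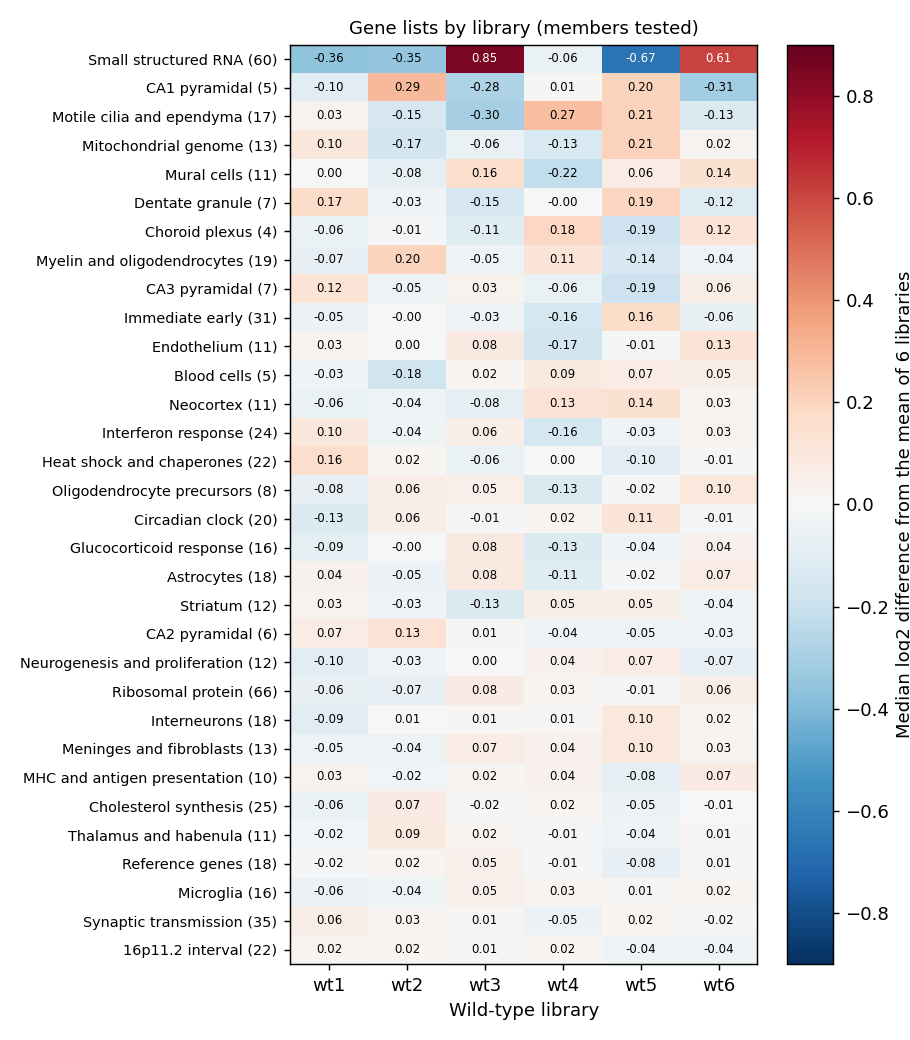
Median over the tested members of each gene list of the log2 difference from a gene's mean over the 6 wild-type libraries, by library; the number of tested members is in brackets and lists with at least 4 tested members are shown, ordered by the SD over libraries. Small structured RNAs (-0.67 in wt5, 0.85 in wt3), CA1 markers and cilia genes head the order, and synaptic, microglial and 16p11.2 genes close it.

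Ttr, transthyretin, divided the libraries into a pair and the remaining 4. It is the thyroxine carrier that the choroid plexus makes in bulk. Its levels were 3.48, 3.18, 2.86, 27.2, 0.91 and 26.0 CPM, so that wt4 and wt6 stood far above the other 4, and the ratio of highest to lowest was 29.7. Most of the choroid plexus list was under the 2 CPM minimum. Of 22 genes in the files, 4 were tested and 1 (Ttr) ranged 2-fold, against 2.65% of all tested genes. The factor Otx2 was at 0 reads in all 6 libraries, and the channel Kcnj13 had a mean of 0.455 CPM and the tight junction gene Cldn2 of 0.504 CPM. In 13 of the 21 members with a read, both wt4 and wt6 were above all other libraries, against 5.95% of the 22607 genes with a read; this pair was chosen after the values of Ttr were seen. Kl, the klotho gene, had 1.08, 1.14, 1.10, 2.03, 0.52 and 2.45 CPM. Calml4 had 6.61 and 6.68 CPM in wt4 and wt6 and 5.06 to 5.89 CPM in the others. Summed over the list the libraries spanned 132 to 195 CPM, most of it from Enpp2, which oligodendrocytes also express and which had 103 ± 10.98 CPM. Nearest in pattern to Ttr was Mff, a mitochondrial fission factor (r = 0.96), with 1.95, 1.82, 1.25, 5.19, 1.25 and 4.75 CPM. Whether choroid plexus tissue was taken along in wt4 and wt6 was not tested.

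Genes of motile cilia, which mark the ependyma, varied in another order of libraries. Of 34 in the files 17 were tested, 4 ranged 2-fold (Mns1, Dnah12, Cfap44 and Ak7) and 14 differed beyond counting error, against 2.65% and 67.5% of all tested genes, with a median bCV of 16.3%. Dnah12, a dynein heavy chain, had 5.78, 3.39, 3.93, 8.003, 8.17 and 4.90 CPM, and Mns1, needed to assemble the axoneme, 2.06, 1.57, 1.32, 3.26, 3.23 and 1.70 CPM. Both were high in wt4 and wt5, and without wt5 Dnah12 ranged 2.37-fold. Cfap44, a protein of the axoneme, was high in wt1 too, with 5.99, 4.01, 2.57, 5.15, 4.48 and 3.20 CPM. Dnah9, the most abundant of the list by reads, had 54.1 CPM in wt5 and 35.0 to 40.7 CPM in the others. The median of the list was 0.27 in wt4, 0.21 in wt5 and -0.30 in wt3 on the log2 scale. Of the 17 members 10 were lowest in wt3, as were 13.8% of all tested genes. Mns1, Cfap44 and Ak7 had means under 5 CPM, where 11.7% of all genes ranged 2-fold. Of the 10 members at 5 CPM or more 1 ranged 2-fold, against 1.23% of all genes at that level. Without wt3 or without wt4 the count of members ranging 2-fold was 2.

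Myelin genes had their highest level in wt2 in 14 of 19 tested members, where wt2 was the highest library for 16.7% of all tested genes. All 19 differed beyond counting error and none ranged 2-fold, near the 95.5% and 0.339% of all genes above 100 CPM. Mbp had 2290, 2848, 2512, 2597, 2208 and 2475 CPM. In this gene wt2 was the highest and wt5 the lowest library, and the list's median was 0.20 in wt2 and -0.14 in wt5. Mbp encodes a protein that compacts the myelin sheath. Mal, Tspan2 and Ugt8 had their highest level in wt2 as well, at 198, 148 and 121 CPM.

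Clock genes were lowest in wt1 in 11 of 20 tested members, as were 15.8% of all tested genes. All 20 differed beyond counting error, against 67.5% of all tested genes, and 2 ranged 2-fold, Dbp and Ciart, against 2.65%. Dbp, an output gene driven by the clock's activators, had 41.6, 97.0, 95.1, 94.98, 91.0 and 81.2 CPM, so that wt1 was the sole low library. Ciart, a repressor of the clock, had 4.80, 9.93, 8.70, 8.88, 8.60 and 7.87 CPM. The repressor genes Nr1d1 (44.4 CPM), Nr1d2 (66.3 CPM), Per1 (40.3 CPM), Per2 (38.0 CPM) and Per3 (21.9 CPM) were also lowest in wt1, while the activator Arntl was highest there, at 43.0 CPM against 31.7 to 37.9 CPM. Without wt1, 0 clock genes ranged 2-fold, and without wt2, which held the highest Ciart level, 1 did.

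Of the 22 tested heat shock and chaperone genes 18 were highest in wt1, as were 16.3% of all tested genes. Hspa5, the chaperone BiP, had 510, 356, 298, 321, 291 and 317 CPM, and Sdf2l1, a cofactor of it, 7.99, 5.24, 4.00, 4.37, 4.27 and 3.64 CPM. Hsp90b1, Pdia4, Creld2 and Manf had their highest level in wt1 too, at 553, 67.0, 9.13 and 32.9 CPM. Of the 22 genes 3 ranged 2-fold, against 2.65% of all tested genes, and 2 of these 3 had means under 5 CPM, where 11.7% of all genes did so. One was Sdf2l1. The other 2, Hspa8 and Hsp90aa1, belong to the rows with a split pattern described further on; without wt6 the count was 1. The cytosolic chaperone Hsp90ab1 had 1120 CPM on average and a bCV of 4.66%, and Dnajb1, a sensitive heat shock target, 44.1 to 50.8 CPM.

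Of 24 tested interferon response genes 2 ranged 2-fold. The list held 13 genes under 5 CPM, where 11.7% of all genes ranged 2-fold, so that the count is near the background. Ifi27, an interferon-induced protein, had 46.0, 44.8, 48.1, 20.04, 24.8 and 48.1 CPM, falling into a low pair (wt4, wt5) and 4 higher libraries. Ifi44 had 4.46, 2.47, 4.62, 3.32, 3.63 and 5.22 CPM. Without wt2, wt4 or wt6 the count of interferon response genes ranging 2-fold was 1. Stat2 and Mx2 ranged 1.18- and 1.20-fold. Of 10 genes of antigen presentation, 5 of them under 5 CPM, 1 ranged 2-fold, which is again near the background. It was Cd74, the invariant chain of class II, with 2.35, 5.15, 2.97, 6.21, 3.23 and 3.16 CPM; RT1-Da, a class II gene below the 2 CPM minimum, was also highest in wt4 (1.59 CPM) and wt2 (1.17 CPM). Cd3e, a chain of the T cell receptor complex, was among the 30 most variable genes outside the small RNAs with 3.14, 5.28, 0.95, 2.95, 1.71 and 0.87 CPM. Haemoglobin genes were steadier, Hbb standing at 16.2 to 29.5 CPM, and the summed blood cell list at 165 to 199 CPM. Among 12 tested genes of neurogenesis and proliferation, Sox11, a factor of newborn neurons, ranged 2-fold with 2.72, 2.87, 3.85, 5.595, 4.12 and 2.21 CPM; without wt4 it did not, and 11.7% of all genes at its level did. Slc5a7, the choline transporter of cholinergic axons, had 6.83, 5.74, 0.99, 6.14, 2.65 and 1.98 CPM.

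Small structured RNAs were the class with the largest spread. They are short noncoding RNAs of the splicing, processing and secretion machinery, many of them with more than 1 copy in a genome, and were 60 of the 12558 tested rows. Together they held 0.780%, 0.788%, 1.01%, 0.762%, 0.571% and 0.889% of the gene reads in wt1 to wt6. In 46 of the 60 rows (76.7%) both wt3 and wt6 were above the other 4 libraries, against 9.35% of all tested genes; the pair was chosen after the values were seen. Over all genes, wt3 and wt6 were also the pair of libraries most alike, with a chi-square per degree of freedom of 3.53 against 7.72 for the next pair. Of the 47 rows ranging 2-fold, wt3 was highest for 38 and wt6 for 7, and wt5 was lowest for 29 and wt1 for 14. Summed over its rows, Y RNA (RF00019), a partner of the Ro protein, had 25.2, 29.9, 171, 41.7, 30.2 and 148 CPM. The RNA of the signal recognition particle (RF00017) had 217, 211, 357, 213, 102 and 332 CPM. U4 (RF00015), a spliceosomal RNA, had 14.6, 18.1, 94.2, 29.4, 10.98 and 69.0 CPM. In each of these wt3 and wt6 were the high pair. The RNA of ribonuclease MRP (RF00030) had 747, 689, 1108, 610, 462 and 886 CPM. The 7SK rows summed to 3444, 3315, 3746, 3213, 2837 and 3834 CPM, a range of 1.35-fold, and U2 (RF00004) ranged 1.32-fold. Rpph1 had 3133, 3231, 3773, 2743, 1781 and 3006 CPM, with wt5 lowest. Without wt3, 37 of 53 tested rows still ranged 2-fold, and without wt5 38 of 58. Alignments to more than 1 place, where reads shared between copies of these RNAs would fall, made up 42.2%, 40.1%, 47.6%, 46.6%, 45.4% and 44.8% in wt1 to wt6. Their part in the result was not tested.

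**Figure D5:**
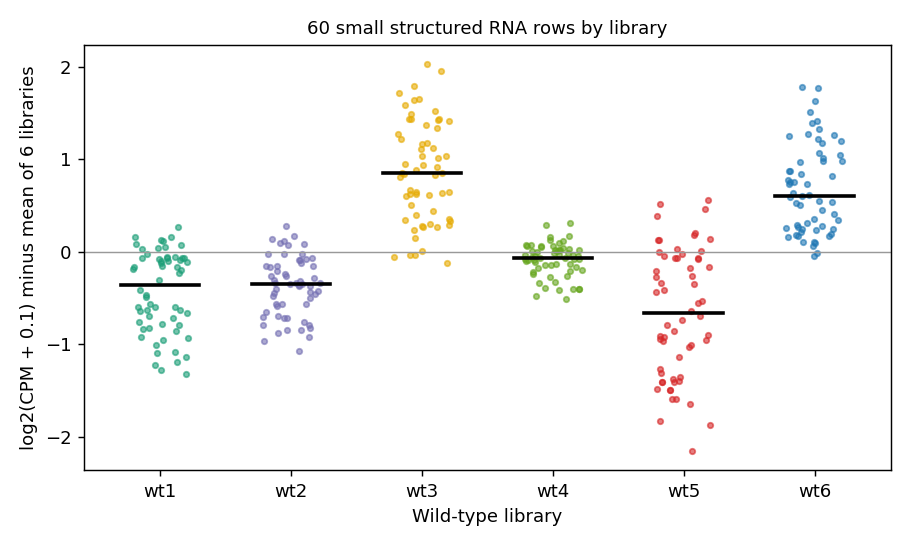
Log2(CPM + 0.1) of each of the 60 tested small structured RNA rows minus its mean over the 6 wild-type libraries; points are rows, bars are medians. The medians are highest in wt3 (0.85) and wt6 (0.61) and lowest in wt5 (-0.67).

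In another set of genes the libraries fell into a high and a low class with a gap between them. Sorted by level, 63 tested genes had a gap of at least 2-fold between neighbouring libraries and 14 a gap of at least 4-fold. The row of Hsp90aa1, the inducible cytosolic chaperone, had 2, 386, 311, 0, 0 and 310 reads in wt1 to wt6. The row of Rps6, a ribosomal protein, had 136, 0, 125, 2, 120 and 108 reads, and that of LOC100909548 had 3, 133, 113, 113, 4 and 89 reads. Each was thus near 0 in some animals and at a narrow level in the rest. Eno2, the neuronal enolase, had 25.2, 2.38, 24.7, 23.2, 1.89 and 25.2 CPM, with wt2 and wt5 low. Ephx2, the soluble epoxide hydrolase, had 0.40, 13.9, 7.45, 7.49, 7.68 and 5.73 CPM, with wt1 low and wt2 above the rest. Clip3, a linker of microtubules to membranes, had 1.93, 8.95, 4.07, 0.14, 1.83 and 5.34 CPM. Hspa8, the constitutive chaperone, had 0.58, 0.71, 0.84, 4.41, 0.91 and 11.03 CPM, and Hnrnpab 2.69, 0.43, 2.24, 2.58, 6.71 and 2.06 CPM, a range of 6.23-fold without wt5, where its mean was under the 2 CPM minimum. The low libraries differed from row to row, being wt1, wt4 and wt5 for Hsp90aa1, wt1 and wt5 for LOC100909548, wt2 and wt4 for Rps6 and wt2 and wt5 for Eno2.

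Several of these symbols belong to genes that most cells express strongly, while their rows held few reads. Only reads with a single place in the assembly were counted, and each of the symbols has 1 row in the files. Any reads shared with a near-identical copy would be missing from that row. Whether such copies took reads from these rows was not tested. The values of Hsp90aa1, Hspa8, Rps6, Eno2 and Hnrnpab are therefore uncertain as levels of those genes. Whether the classes follow sequence differences between these outbred animals was not tested. The gene most like the Hsp90aa1 row was Slc2a10, a glucose transporter gene, with 1.24, 3.49, 3.34, 1.22, 1.16 and 3.20 CPM (r = 0.998), and the one most like Eno2 was Plac9, with 3.35, 0.62, 2.24, 3.15, 0.73 and 2.06 CPM (r = 0.95).

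Among the unnamed loci was the tested gene with the highest bCV. LOC100909840 had 15, 2, 1, 50, 352 and 7 reads, or 10.7 CPM in wt5, and a bCV of 192%; without wt5 its mean was 0.493 CPM. LOC108348118 had 0.26, 0.34, 2.97, 0.27, 6.74 and 2.73 CPM, a range of 11.3-fold without wt5, where its mean of 1.31 CPM was under the minimum. AABR07015081.2 was the most abundant of the 30 most variable genes outside the small RNAs, with 1194, 390, 865, 1029, 2540 and 935 CPM. AABR07015057.1 had 34.2, 13.9, 29.5, 36.7, 87.5 and 16.8 CPM. Both were highest in wt5 and lowest in wt2, and without wt5 they ranged 3.06- and 2.64-fold. AABR07015042.1 was instead highest in wt4 with 20.9 CPM and lowest in wt6 with 1.11 CPM. AABR07050545.1 was high in wt1 alone (24.2 CPM against 4.43 to 8.23 CPM) and LOC108351137 in wt2 alone (25.6 CPM against 5.66 to 9.15 CPM). Outside these loci, Pcdhga1, a protocadherin of the gamma cluster, was high in wt5 (5.37 CPM against 1.10 to 1.74 CPM, a range of 1.58-fold without wt5, where its mean was 1.44 CPM) and Ccdc77 high in wt3 and wt6 (7.38 and 5.70 CPM against 1.65 to 1.79 CPM).

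At the other end, some genes did not differ beyond counting error, and 1107 tested genes had a bCV of 0. The order among such genes is not read as a property of them. Among genes with a mean of at least 20 CPM, the lowest coefficient of variation was that of Uspl1, a SUMO protease, at 0.55%, where counting error alone was expected to give 2.81%. Its values were 41.6, 41.9, 42.0, 41.8, 41.4 and 41.8 CPM. Cnpy3, a chaperone of Toll-like receptors, followed with 49.3 to 50.2 CPM, and Irak1, a kinase of the same receptors, with 101 to 104 CPM. Map4k5, Reps2, Ccni and Lhfpl6 and the loci LOC103693780 and AABR07054639.1 were within the 10 steadiest. The most abundant named one was Pfkm, the muscle-type phosphofructokinase of glycolysis, with 476, 476, 487, 483, 472 and 475 CPM. The usual reference genes are given beside these 10, which were picked for their low values. Actb ranged from 2049 to 2419 CPM with a bCV of 6.38%, Ywhaz from 1282 to 1397 CPM with 3.09%, and Polr2a from 56.0 to 86.8 CPM with 15.3%. Of the 18 tested reference genes 0 ranged 2-fold, which is near the 2.65% of all tested genes.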

How the data were processed

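RNA of 6 wt hippocampi was used; groups and replicate numbers came from the description field of the labels. Each deposited table pairs an Ensembl gene with its unnormalized count. The authors made these counts from single-end reads of 50 bases with bcl2fastq 2.17.1.14, Hisat2 (rn6, Ensembl 96 models) and HTSeq-count. The labels describe rRNA removal and total RNA libraries, while the molecule field names polyA RNA; this was not settled here. The 5 summary lines of each table were left out of the gene totals.

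Shares of reads are unscaled. Variation used CPM on library sizes scaled by TMM (edgeR 4.0.16, R 4.3.3; DESeq2 1.42.0 gave size factors as an alternative) for genes with a mean of at least 2 CPM. Ratios of highest to lowest library set a low value to 3 reads per library. The bCV is the square root of the squared coefficient of variation minus the counting variance, 0 where negative. Tests were Dixon's criterion for a single library apart from the rest and a chi-square test of dispersion with 5 degrees of freedom. The calculation was tested on simulated data. Log2 values had 0.1 CPM added. PCR reads without molecular identifiers are not independent molecules, so counting error is a lower limit of technical error.

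Genes were named by rank (20 highest by reads, 30 highest by bCV, 10 lowest by coefficient of variation at 20 CPM or more), as list members, as the 3 highest and lowest per library and as the 5 most alike. The gene lists and members were chosen with earlier results of these data known. Symbols were taken as the files give them, and a few genes are not reported here; 11700 of 12558 tested genes (93.2%) matched the GRCr8 table, used for names and promoters only.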

Additional observations from a re-analysis of the deposited data

Results flagged for a closer look

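Among 94 named genes checked, 21 held a library whose gap to its nearest neighbour took up more of the whole range of the 6 libraries than Dixon's critical value allows. Chance flags about 1 in 20 groups, and most of these genes were named for a large spread, so a higher number is built into the choice. In wt5 the high values were 15.3 CPM for Npas4, 16.7 CPM for Fos, 28.3 CPM for Dusp1, 62.2 CPM for Junb, 25.6 CPM for Btg2 and 7.71 CPM for Gadd45g, all immediate early genes. Also high in wt5 were Pcdhga1 (5.37 CPM), Hnrnpab (6.71 CPM) and the loci LOC100909840 (10.7 CPM), AABR07015057.1 (87.5 CPM) and AABR07015081.2 (2540 CPM). In wt4 the locus AABR07015042.1 was high at 20.9 CPM, and the cytoskeletal genes Map1b (3731 CPM) and Sptan1 (2307 CPM) were low. In wt1 the locus AABR07050545.1 (24.2 CPM) and Sdf2l1 (7.99 CPM) were high and Dbp (41.6 CPM) was low. In wt2 Wfs1 (527 CPM) and LOC108351137 (25.6 CPM) were high. In wt6 Hspa8 was high at 11.03 CPM and Map4k5, one of the steadiest genes, low at 63.2 CPM.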

How the results depend on the processing

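No paired analysis was possible because only the wt group was used, so no groups were compared. The number of genes ranging 2-fold followed the minimum level most: it was 333 at 2 CPM, 636 at 1 CPM and 70 at 10 CPM, and 83 between the second highest and second lowest library. The median bCV of 5.79% became 6.06% with plain library sizes, 5.24% at a minimum of 10 CPM and 7.22% without subtraction of the counting variance. The 20 leading genes outside the mitochondrial genome held 5.96% of the reads left after its removal. Leaving out each library in turn gave 13527 to 13572 expressed genes, 14.2% to 14.5% of reads in the leading genes, 7340 to 8173 genes beyond counting error, 241 to 308 genes ranging 2-fold, a median bCV of 5.27% to 5.96%, 20 to 27 of the 30 most variable genes shared, a median SD over libraries of the list levels of 0.0721 to 0.0937 (log2) and a wt5 interval value of -0.04 to -0.03. With plain library sizes 8937 genes, and with DESeq2 size factors 8515, differed beyond counting error. Counts of list members and ranges of named genes were recomputed as alternatives chosen after seeing the data. For the 14 lists with a member ranging 2-fold, 67 leave-one-out counts stayed within 1.5 times and 17 did not. Of the 2-fold calls of named genes, 30 were lost and 281 kept under leave-one-out, while 19 of the 330 were not counted, the gene being under the 2 CPM minimum without that library (Pcdhga1, Hnrnpab, LOC108348118 and LOC100909840 without wt5 among them, whose ranges without wt5 are given with no minimum applied), and 26 were lost and 29 kept between the second highest and second lowest library. Reads per transcript length were not computed, for want of exon lengths of the models used. Depth limits genes of 2 to 5 CPM, where the counting error was 10.02% at the median.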
